A study of Drosophila melanogaster with 8 samples.

Results

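A set of 10 genes of eye and body pigment that serve as visible markers in *Drosophila* stocks was examined in adult testes: *y*, *v*, *w*, *cn*, *st*, *bw*, *Hn*, *ry*, *ple* and *e*. They were taken as a list of named genes and matched from symbol to FlyBase identifier, and all 10 have a row among the 14256 genes of the count table. *Hn*, *ple*, *ry* and *e* held fewer reads in *Tj>E(Pc) shRNA* testes than in *Tj-Gal4* testes, with *Hn* nearly lost. *y* and *v* held more, and *w*, the most highly expressed of the set per length, held about the same. The list was chosen by the genes' role together with their measured counts in this same comparison, so the differences between the genotypes are given for these genes as a description. No p-value is given for them, and how many a fit over all genes called is printed once, beside the share of all genes called.

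Eye colour in flies comes from brown ommochromes and red pteridines. The ommochromes are made from tryptophan by way of *v*, *cn* and later steps, and the pteridines from GTP. The *ry* enzyme makes another pteridine, isoxanthopterin, and the *Hn* enzyme uses tetrahydrobiopterin. The White protein pairs with Scarlet or with Brown to form the ABC transporters that bring the precursors into pigment granules. Body colour comes from tyrosine, which the *ple* enzyme turns into dopa and which then becomes dopamine, melanin or, through *e*, a pale sclerotin, while Yellow protein is needed for black melanin. In the male, the outer sheath of the testis holds pigment cells too, and which of these genes act there was not tested. Stocks often carry mutant alleles of *y*, *v*, *w*, *cn*, *bw*, *st*, *ry* or *e*, and transgenes often carry a working copy of *w*, *v* or *y* as a marker. Reads from such a copy and reads from the resident gene fall into the same gene count.

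RNA-seq was made from whole testes of males 5 days old, 1 pair of testes per library, with 2 libraries per genotype. Control males are labelled *Tj-Gal4*, the driver strain, with no copy number given. Knockdown males are labelled *Tj-Gal4/+; UAS-E(Pc) shRNA/+*, called *Tj>E(Pc) shRNA* below, so both genotypes carry the driver and only the latter the hairpin against *E(Pc)*, Enhancer of Polycomb. *Tj-Gal4* is active in the somatic cells of the gonad and the libraries hold germ cells as well. Neither the labels nor the methods give the eye or body colour alleles of the 2 genotypes, the marker gene of either transgene or the origin of the X chromosome. The methods do give a stock-centre number for the driver and for the hairpin line. The genotypes recorded for those stocks, marker genes included, were not looked up here. The genotypes differ in the hairpin and in whatever their parental stocks differ in, and in these 4 libraries the knockdown and the genetic background cannot be told apart.

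Total counts were between 3307767 and 6251181 per library, with *Tj>E(Pc) shRNA* replicate 1 the deepest, at 1.89 times the shallowest. The 10 pigment genes made up between 0.0151% and 0.0324% of a library's counts. A single count was worth between 0.151 and 0.321 CPM, the count relative to the library's total as scaled by edgeR's TMM method. *E(Pc)* mRNA, read to check the labels, was not lower under the knockdown label, at 854 and 1187 counts for the controls against 2685 and 1235 (log2 fold change 0.44, standard error 0.18, adjusted p = 0.083 by edgeR's quasi-likelihood test). The paper saw tagged E(Pc) protein in germ cells as well as cyst cells, and the driver acts in somatic cells. Whole-testis mRNA therefore cannot decide whether the labels hold. By the paper, the tagged protein was much reduced in cyst cells under *E(Pc)* RNAi. Directions below rest on the labels, and *Tj>E(Pc) shRNA* stands for the libraries so labelled. Germline markers (9 of 10 matched to a row, none at 0 in all libraries) summed to 676 to 762 CPM in *Tj-Gal4* and 813 to 980 CPM in *Tj>E(Pc) shRNA*. By edgeR's quasi-likelihood test 6 of the 9 were called higher, among them the early germ cell genes *bam* (log2 fold change 1.62, adjusted p = 6.52e-04), *zpg* (2.05, adjusted p = 1.21e-04) and *aub* (1.51, adjusted p = 1.62e-04). By the same test *comr* (0.71, adjusted p = 0.00501), *can* (0.62, adjusted p = 0.00733) and *aly* (0.40, adjusted p = 0.0390) were called higher too. Calls of *can* and *aly* were lost without either control. The remaining 3, *sa* (0.08), *Mst87F* (-0.43) and *dj* (-0.48), were not called. The 4 cyst lineage markers summed to 187 to 213 and 162 to 219 CPM, with *zfh1* called higher (0.65, adjusted p = 0.0238, lost without either control or without *Tj>E(Pc) shRNA* replicate 1), *so* called lower (-1.38, adjusted p = 0.00751) and *eya* (0.01) and *tj* (0.21) not called. Muscle sheath markers (4 of 6 matched to a row, none at 0) summed to 329 to 356 and 287 to 292 CPM. *Act57B* was called lower (-0.53, adjusted p = 0.0133, lost without either control), and *Mlc2* (-0.02), *up* (-0.09) and *Tm2* (-0.19) were not called. Marker genes are named here after their values were seen. In whole testes, fewer cells of a type and less RNA per cell cannot be told apart.

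Levels of different genes were set side by side only per length, as the deposited RPKM (called cRPKM), which covers 9 of the 10 genes and leaves out *st*. In *Tj-Gal4* the order was *w* (31.1 ± 1.02 cRPKM, SD, n = 2), *Hn* (25.8 ± 2.75), *ple* (13.8 ± 4.16), *ry* (11.9 ± 0.986), *cn* (9.33 ± 0.877), *e* (7.58 ± 1.80), *bw* (2.88 ± 1.09), *v* (2.30 ± 0.996) and *y* (0.432 ± 0.0138). Libraries of *ple* and *ry* overlapped, as did those of *cn* and *e* and those of *bw* and *v*, and the other neighbours in this order did not overlap. *w* again led in *Tj>E(Pc) shRNA*, at 30.4 ± 5.73 cRPKM, and *Hn* was last, at 0.276 ± 0.203. Between them lay *v* (6.21 ± 3.31), *cn* (5.31 ± 2.33), *e* (3.83 ± 1.48), *y* (3.63 ± 1.46), *ry* (3.57 ± 1.31), *bw* (2.55 ± 1.33) and *ple* (2.20 ± 1.66), and each of these overlapped the next. Among the 11773 genes with a cRPKM value, *Hn* moved from rank 5237 to rank 11712 and *y* from rank 11577 to rank 9888, while *w* stood at 4724 and 5298.

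**Figure D1:**
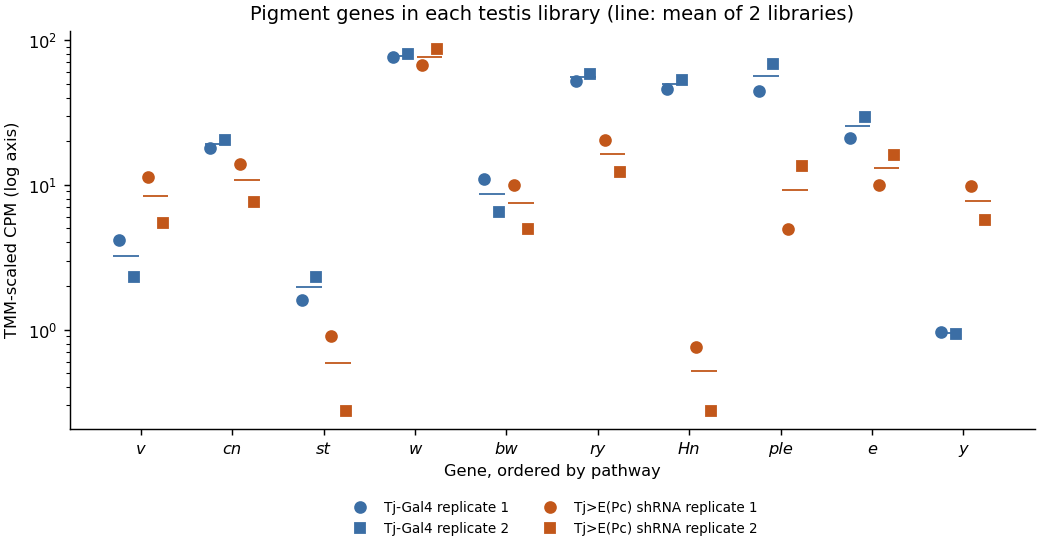
TMM-scaled CPM (log axis) of the 10 pigment genes in each of the 4 testis libraries, with circles for replicate 1, squares for replicate 2 and a line at the mean of each genotype. *Hn* lies at a mean of 49.6 CPM in *Tj-Gal4* and 0.515 CPM in *Tj>E(Pc) shRNA*, *y* stands near 0.946 CPM in both control libraries and above it in both knockdown libraries, and *w* overlaps between the genotypes.

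Of the 10 genes, 9 passed edgeR's filter on low counts and were fitted together with all other genes, 11163 in all. *y* and *v* passed through their level in the knockdown libraries and *Hn* through its level in the controls, so a difference in these was a condition of their being fitted. The same was so of some genes named below. Among them, *m*, *yellow-e2*, *Pu*, *Dgat2* and *Myo10A* passed through the knockdown libraries, and *CG11670*, *snk*, *Snmp2* and *trp* through the controls. The adjusted p-values printed for these carry that limit. The fit called 2 of the 9 higher (*y* and *v*) and 4 lower (*Hn*, *ple*, *ry* and *e*), where a call is an adjusted p under 0.05. Over all genes fitted, 22.5% were called higher and 11.4% lower. These calls are no test of the 10 genes, which were chosen with the comparison known. Counted with *st*, the *Tj>E(Pc) shRNA* pair of libraries lay wholly above the control pair in 2 of the 10 and wholly below it in 6. Over all genes fitted this was so of 38.9% and 33.8%, or 72.7% together. Nothing is read from these shares. Their median log2 fold change was -0.79 and that of all genes fitted was 0.00.

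Of the ommochrome genes, *v* was higher in *Tj>E(Pc) shRNA*, and *cn* and *st* lay below the controls in both knockdown libraries. *v* (FBgn0003965, chromosome X, 1294 bp of merged exons) encodes tryptophan 2,3-dioxygenase, the entry step. Its counts were 13 and 10 for *Tj-Gal4* replicates 1 and 2, and 75 and 20 for those of *Tj>E(Pc) shRNA*. As CPM these were 4.17 and 2.33 against 11.3 and 5.48, so both knockdown libraries lay above both controls, by a narrow margin between the lower knockdown library and the higher control. The fitted log2 fold change was 1.47 (standard error 0.47), or 2.76-fold, and the ratio of summed counts per library size was 2.98 (exact 95% interval 1.88 to 4.93, counting error only). Within *Tj>E(Pc) shRNA*, replicate 1 held 2.07 times the level of replicate 2 (adjusted p = 0.0128, exact binomial test), and *Tj-Gal4* replicates were not called apart (adjusted p = 0.609, same test). Leaving out *Tj>E(Pc) shRNA* replicate 1 brought *v* to 0.81 and leaving out *Tj-Gal4* replicate 2 brought it to 1.05.

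Kynurenine 3-monooxygenase, encoded by *cn* (FBgn0000337, chromosome 2R, 1929 bp), acts further down the same pathway. *cn* had 56, 88, 92 and 28 counts in the libraries in the same order, or 18.0 and 20.5 CPM in *Tj-Gal4* and 13.9 and 7.67 CPM in *Tj>E(Pc) shRNA*. Both knockdown libraries were below both controls, and they differed from each other by 1.81 times (adjusted p = 0.0239, exact binomial test). The fitted log2 fold change of *cn* was -0.79 (standard error 0.30), with a value of -1.33 without *Tj>E(Pc) shRNA* replicate 1 and -0.48 without replicate 2. *st* (FBgn0003515, chromosome 3L, 2145 bp), which encodes the Scarlet transporter subunit, was close to the limit of detection. Its 5 and 10 counts for *Tj-Gal4* and 6 and 1 for *Tj>E(Pc) shRNA* did not pass the filter. The ratio of its summed counts was 0.337 with an exact 95% interval of 0.116 to 0.878.

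For *w* and *bw*, which encode the other transporter subunits, the libraries of the genotypes overlapped. *w* (FBgn0003996, chromosome X, 2352 bp) had counts of 238 and 344 for *Tj-Gal4* and of 446 and 315 for *Tj>E(Pc) shRNA*. Its CPM were 76.3 and 80.0 in the controls and 67.4 and 86.3 in the knockdown libraries, which lay on either side of the controls. The log2 fold change was -0.04 (standard error 0.15), and it was 0.03 with scaling by library size alone, so no direction is given. The ratio of summed counts was 0.944 with an exact 95% interval of 0.846 to 1.05, and the knockdown replicates differed from each other by more than counting error (ratio 0.781, adjusted p = 0.00486, exact binomial test). *w* also had the narrowest range of the 9 genes when single libraries were left out, -0.22 to 0.14.

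For *bw* (FBgn0000241, chromosome 2R, 2795 bp) the counts were 34, 28, 66 and 18, or 10.9, 6.52, 9.97 and 4.93 CPM, and the genotypes overlapped. Replicate 1 was above replicate 2 in both genotypes, by 1.67 times in *Tj-Gal4* (adjusted p = 0.293) and by 2.02 times in *Tj>E(Pc) shRNA* (adjusted p = 0.0263, both by the exact binomial test). Its log2 fold change of -0.13 (standard error 0.41) ran from -0.77 to 0.23 with a library left out, so these libraries bound a difference in *bw* only loosely.

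*Hn*, called Henna, encodes phenylalanine hydroxylase, an enzyme that uses tetrahydrobiopterin and whose mutants have altered eye pteridines. It showed the widest gap of the 10 genes. *Hn* (FBgn0001208, chromosome 3L, 1799 bp) had 143 and 229 counts for the *Tj-Gal4* replicates and just 5 and 1 for those of *Tj>E(Pc) shRNA*, although knockdown replicate 1 was the deepest library of the 4. In CPM these were 45.9 and 53.3 against 0.755 and 0.274. Both controls were close to each other (replicate ratio 0.861, adjusted p = 0.563, exact binomial test) and both knockdown libraries were near the floor. The fitted log2 fold change was -6.35 (standard error 0.35), which ranked 3 from the lowest of 11163 genes. Summed over libraries, 372 counts stood against 6, a level 85.9-fold lower with an exact 95% interval of 39.1 to 235.5 for counting error. Fits without 1 library gave -7.34 to -6.00. A fit on log2(cRPKM + 1), which understates the change of low genes, gave -4.40.

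*ry*, called rosy, encodes xanthine dehydrogenase, which makes uric acid and isoxanthopterin and whose loss dulls the red of the eye. The counts of *ry* (FBgn0003308, chromosome 3R, 4334 bp) were 162 and 251 for *Tj-Gal4* but 135 and 45 for *Tj>E(Pc) shRNA*. Its CPM were 52.0 and 58.4 against 20.4 and 12.3, with no overlap. The log2 fold change was -1.70 (standard error 0.22), or 3.26-fold lower, and ran from -2.16 to -1.44 with a library left out. The knockdown replicates differed by 1.65 times (adjusted p = 0.0144, exact binomial test), less than either differed from the controls.

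Of the body pigment genes, *ple* and *e* were lower and *y* was higher. *ple* (FBgn0005626, chromosome 3L, 3806 bp), which encodes tyrosine hydroxylase, the rate-limiting enzyme of dopamine synthesis, had 138 and 292 counts for *Tj-Gal4* but 33 and 49 for *Tj>E(Pc) shRNA*. Expressed as CPM, its levels were 44.3 and 67.9 against 4.99 and 13.4. Both knockdown libraries were below both controls, at a log2 fold change of -2.75 (standard error 0.36), 6.72-fold lower. *ple* was also the gene of the 10 whose replicates differed beyond counting error in both genotypes, with replicate 2 higher in each (replicate 1 over 2 was 0.651 in *Tj-Gal4*, adjusted p = 7.14e-04, and 0.371 in *Tj>E(Pc) shRNA*, adjusted p = 7.68e-05, exact binomial test). Left-out libraries moved its log2 fold change between -3.51 and -2.08.

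*e* (FBgn0000527, chromosome 3R, 3143 bp) encodes ebony, which joins beta-alanine to dopamine. The counts were 66 and 127 for *Tj-Gal4* and again 66, with 59, for *Tj>E(Pc) shRNA*, or 21.2 and 29.6 against 9.97 and 16.2 CPM. The genotypes did not overlap, and as with *ple* replicate 2 was the higher in each genotype, beyond counting error in *Tj>E(Pc) shRNA* (ratio 0.617, adjusted p = 0.0356) and not called in *Tj-Gal4* (ratio 0.716, adjusted p = 0.201, both by the exact binomial test). The log2 fold change of *e* was -1.01 (standard error 0.29), 2.02-fold lower. Without *Tj-Gal4* replicate 2 it was -0.72 and without *Tj>E(Pc) shRNA* replicate 1 it was -0.67.

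*y* stood out for how little of it the control testes held. *y* (FBgn0004034, chromosome X, 2038 bp), which encodes the secreted Yellow protein, had 3 and 4 counts for *Tj-Gal4* but 65 and 21 for *Tj>E(Pc) shRNA*. In CPM these were 0.962 and 0.931 against 9.82 and 5.75, so the controls were alike and at about the floor of 3 counts, and each knockdown library was well above them. The fitted log2 fold change was 3.05 (standard error 0.51), or 8.28-fold, the 25th highest of 11163 genes. The ratio of summed counts, 86 against 7, was 8.87 with an exact 95% interval of 4.13 to 22.7. The 2 knockdown replicates were not called apart (ratio 1.71, adjusted p = 0.104, exact binomial test). The value ran from 2.57 without *Tj>E(Pc) shRNA* replicate 1 to 3.34 without replicate 2.

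**Figure D2:**
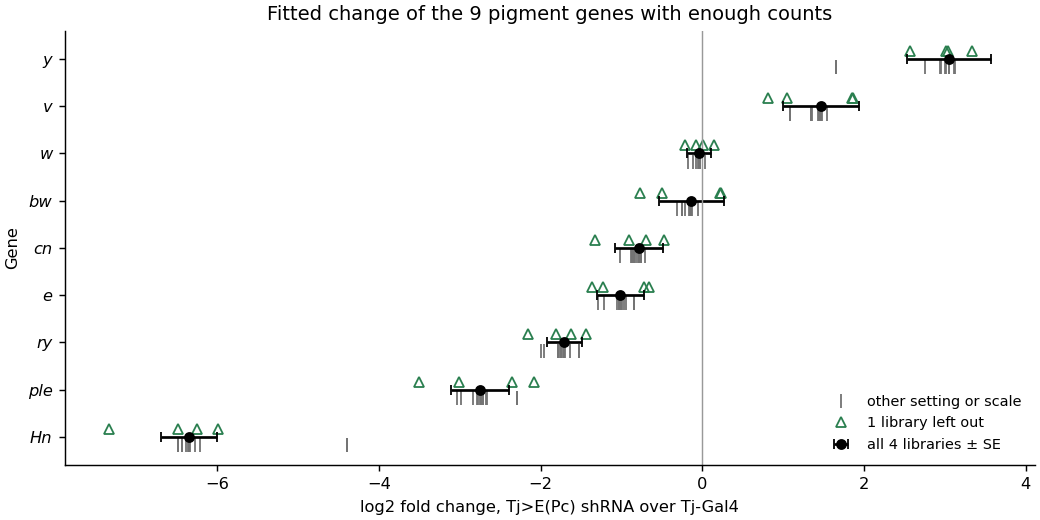
Fitted log2 fold change of *Tj>E(Pc) shRNA* over *Tj-Gal4* for the 9 genes that passed the filter, as points with bars of 1 standard error, with triangles for the 4 fits that leave out 1 library and ticks for other settings, cRPKM fits included. *y* (3.05) and *v* (1.47) lie on the higher side and *Hn* (-6.35), *ple* (-2.75), *ry* (-1.70) and *e* (-1.01) on the lower side in every fit, and the triangles of *w* and *bw* fall on both sides of 0.

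Agreement between replicates is a comparison that the choice of genes did not use. In *Tj-Gal4*, *ple* alone of the 10 was called apart between replicates, and over all genes with a count 8.07% were. In *Tj>E(Pc) shRNA*, 7 of the 10 (*v*, *w*, *cn*, *bw*, *ry*, *ple* and *e*) were called apart, and 25.9% of all genes were. The median ratio of replicate 1 to 2 within *Tj>E(Pc) shRNA* itself moved with coverage. It was 1.34 in genes under 0.02 counts per base, where *bw* and *y* lie, 1.16 at 0.02 to 0.1, the range of 6 of these genes, 0.984 at 0.1 to 0.5, where *w* lies, and 0.738 above 0.5. The test is the exact binomial test above, with Benjamini-Hochberg adjustment over all genes with a count in the pair. It compares libraries of single pairs of testes. *v*, *cn*, *bw* and *ry* were higher in replicate 1 and *w*, *ple* and *e* in replicate 2, so the 7 genes did not move together.

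How fold changes vary with coverage bears on these genes, because most of them are thinly covered. In genes of 0.02 to 0.1 counts per base, which include *cn*, *e*, *Hn*, *ry*, *v* and *ple*, the median log2 fold change was 0.38, with 38.1% called higher and 7.78% lower. Below 0.02 counts per base, where *bw* and *y* lie, the median was -0.00, and at 0.1 to 0.5, where *w* lies, it was 0.00. With the trend on abundance removed from each library, the log2 fold changes of *y* and *v* were 3.12 and 1.43, and those of *Hn*, *ple*, *ry*, *e* and *cn* were -6.44, -3.04, -1.99, -1.29 and -1.02. The 3 X-linked genes were also set beside the X chromosome, where 1771 genes were fitted, 30.7% were called higher, 5.36% were called lower and the median was 0.21. *v* and *y* lay above this median and *w* below it.

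Genes that act with these 10 were examined next, in lists of the same pathways. The lists were written with earlier results of these libraries known, and their counts stand beside 22.5% called higher and 11.4% called lower among all genes. Of the ommochrome list, only *kar* was matched to a row besides the genes above. *kar* (karmoisin, a transporter-like protein of the brown pigment pathway) had counts of 31 and 43 for *Tj-Gal4* and of 180 and 65 for *Tj>E(Pc) shRNA*. It rose from 9.97 ± 0.0452 CPM to 22.5 ± 6.64 CPM (n = 2 per genotype, log2 fold change of 1.20 with a standard error of 0.28, adjusted p = 0.00976, edgeR quasi-likelihood test) and kept its call with any library left out. *kar* and *v* thus lay above both controls while *cn* lay below both.

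Among the 9 other pteridine genes fitted, 2 were called higher and 7 were not called, with a median log2 fold change of 0.33. *cin* (cinnamon, needed for the molybdenum cofactor that xanthine dehydrogenase uses) rose from 19.8 ± 2.60 to 34.3 ± 0.0348 CPM (log2 fold change 0.78, standard error 0.19, adjusted p = 0.0121). *Dhpr*, the dihydropteridine reductase that regenerates the cofactor of the *Hn* and *ple* enzymes, rose from 11.8 ± 1.502 to 21.3 ± 0.862 CPM (log2 fold change 0.86, standard error 0.24, adjusted p = 0.0216, edgeR quasi-likelihood test for both). Both calls were lost without *Tj-Gal4* replicate 1, and that of *Dhpr* also without *Tj-Gal4* replicate 2. *Pu*, GTP cyclohydrolase I, and *pr*, the next enzyme towards tetrahydrobiopterin, are named for their place upstream of these steps and not by rule, with their values known. *Pu* held 6, 6, 24 and 14 counts (log2 fold change 1.18, adjusted p = 0.0697) and *pr* 92, 118, 250 and 149 (0.46, adjusted p = 0.0534), and neither passed the test.

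The 9 other genes of melanin and cuticle tanning had a median log2 fold change of -0.33 and none was called by edgeR's quasi-likelihood test. At an unadjusted p under 0.05 there were 2, edgeR's exact test called 1 and DESeq2 called 0. *Ddc*, the dopa decarboxylase that acts directly after *ple*, held 93, 143, 184 and 80 counts, or 31.6 ± 2.44 against 24.9 ± 4.16 CPM (log2 fold change -0.33, adjusted p = 0.197). *t*, the hydrolase tan that reverses the *e* reaction, held 46, 68, 74 and 24 counts (log2 fold change -0.74, adjusted p = 0.0859). Both are named for their place beside *ple* and *e*, with their values known. In each the knockdown libraries lay below the controls, with smaller fold changes than *ple*.

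Of the 8 other genes of the yellow family that were fitted, 1 was called. *yellow-e2* held 7, 13, 65 and 24 counts and rose from 2.64 ± 0.552 to 8.20 ± 2.29 CPM (log2 fold change 1.64, standard error 0.41, adjusted p = 0.0128, edgeR quasi-likelihood test). This call was lost without *Tj-Gal4* replicate 1 and without *Tj>E(Pc) shRNA* replicate 1. The median of the 8 was -0.07, close to that of all genes.

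Genes of the ABCG transporter family other than *w*, *st* and *bw* went both ways. Of 10 fitted, 4 were called higher and 1 lower, with a median of 0.16. *CG32091* rose from 6.81 ± 0.565 to 17.4 ± 3.75 CPM (log2 fold change 1.36, adjusted p = 0.00672), *CG5853* rose from 26.7 ± 3.33 to 54.0 ± 1.96 CPM (adjusted p = 0.00141), and *CG4822* (0.93, adjusted p = 0.0461) and *Atet* (0.74, adjusted p = 0.00689) rose as well, all by edgeR's quasi-likelihood test. *CG4822* lost its call without any of 3 libraries, both controls and *Tj>E(Pc) shRNA* replicate 1. *CG11069* fell from 18.8 ± 5.30 to 5.70 ± 1.23 CPM (log2 fold change -1.77, standard error 0.32, adjusted p = 0.00288), with 47, 97, 32 and 24 counts.

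Genes of pigment granule biogenesis, which sort transporters and enzymes to the granules in the eye and serve lysosomal traffic in other cells, held the most calls of these lists. Of 17 fitted, 8 were called higher and the rest were not called, with a median of 0.45. *dor* (deep orange, a subunit of the HOPS tethering complex) rose from 20.8 ± 1.43 to 46.6 ± 3.12 CPM (log2 fold change 1.17, standard error 0.17, adjusted p = 9.45e-04), and *Pldn* (0.89, adjusted p = 0.0435) and *Blos1* (0.87, adjusted p = 0.0337), subunits of the BLOC-1 complex, and *ca* (claret, a regulator of the granule's Rab protein, 0.85, adjusted p = 0.00256) also rose, all by edgeR's quasi-likelihood test. The count of 8 was unsteady. It was 1 without *Tj-Gal4* replicate 1, where *dor* alone kept its call, and 3 without *Tj-Gal4* replicate 2, where *ca* kept its call and *Pldn* and *Blos1* lost theirs, and DESeq2 called 3. *Pldn* was also not called without *Tj>E(Pc) shRNA* replicate 1. The genes of this list lie at a median of 0.0903 counts per base, in the range of coverage where 38.1% of all genes were called higher.

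Other visible marker genes of stocks, for bristles, wings and body form as well as colour (17 fitted, a few of them also in the lists above), had 4 called higher and 1 lower, and a median of -0.10. *m* (miniature, needed for the shape of wing cells) held 4, 12, 68 and 24 counts (log2 fold change 2.005, standard error 0.46, adjusted p = 0.00884) and lost its call without *Tj-Gal4* replicate 1. *sn*, which encodes the actin bundler fascin, rose from 63.4 ± 8.996 to 109.6 ± 0.0383 CPM (0.78, adjusted p = 0.00276, lost without *Tj-Gal4* replicate 1). *hry* (hairy, 0.77, adjusted p = 0.0223) and *rb* (ruby, also a granule gene, 0.45, adjusted p = 0.0456) rose as well, and both lost their calls without either control, *rb* also without *Tj>E(Pc) shRNA* replicate 1. *Ser*, which encodes the Notch ligand Serrate, fell from 142.2 ± 4.25 to 61.4 ± 21.3 CPM (-1.19, adjusted p = 0.0019, edgeR quasi-likelihood test for all 5). Over all of these lists, 19 of 64 genes fitted other than the 10 were called higher (5 without *Tj-Gal4* replicate 1 and 11 without *Tj-Gal4* replicate 2) and 2 lower (9 without *Tj>E(Pc) shRNA* replicate 1 and 4 without replicate 2), and their median was 0.23.

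**Figure D3:**
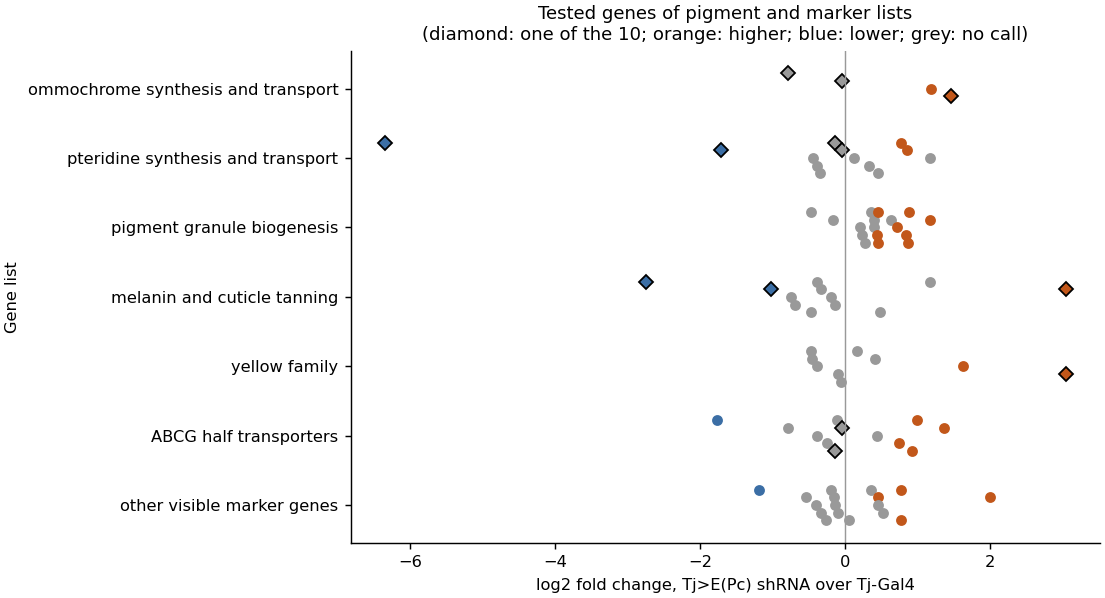
Log2 fold change (x axis) of each fitted gene of 7 lists of pigment and marker genes (rows), with outlined diamonds for the 10 genes, orange for called higher, blue for called lower and grey for no call. Pigment granule genes lie mostly to the right of 0 with 8 called higher, and *Hn* (-6.35), *ple* (-2.75) and *ry* (-1.70) lie far from the other genes of their pathways.

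To read the genes against their chromosomal surroundings, the 5 nearest genes of the count table on either side of each were taken in the order of a RefSeq annotation. Of these 100 neighbours 74 were fitted, and 12 were called higher and 8 lower, 27.0% in all beside 33.9% of all genes. The count of 8 lower was 3 without *Tj-Gal4* replicate 2 and 22 without *Tj>E(Pc) shRNA* replicate 2. Their median log2 fold change was -0.11.

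Around *y*, 4 neighbours were fitted and edgeR's quasi-likelihood test called 0, with 1 at an unadjusted p under 0.05 and 0 by DESeq2 and by edgeR's exact test. Their log2 fold changes lay between -0.41 and 0.83, well under the 3.05 of *y*. Around *v*, 1 of 7 was called, *Myo10A*, an unconventional myosin gene, at 4, 7, 33 and 12 counts (1.51, adjusted p = 0.0346, lost without either control or without *Tj>E(Pc) shRNA* replicate 1). Around *w*, *crm* (cramped, a chromatin protein gene) rose from 8.71 ± 3.10 to 28.6 ± 3.30 CPM (1.76, adjusted p = 0.00137) and *CG14416* fell from 9.68 ± 1.45 to 3.26 ± 0.733 CPM (-1.53, adjusted p = 0.01, lost without *Tj-Gal4* replicate 2). *w*, which lies between them, had a log2 fold change of -0.04.

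A neighbour called lower was found beside *Hn*, *ple* and *ry*, and also beside *w* and *st*. *CG7409*, the gene next to *Hn*, fell from 73.8 ± 11.4 to 23.001 ± 0.373 CPM (log2 fold change -1.69, standard error 0.16, adjusted p = 1.49e-04, edgeR quasi-likelihood test), with 205, 352, 154 and 83 counts. It kept its call with any library left out. Also near *Hn*, *Snmp2*, a scavenger receptor gene of the CD36 family, fell (-1.51, adjusted p = 0.0244, lost without *Tj-Gal4* replicate 2) and *CG7457* rose (1.61, adjusted p = 8.22e-04). *CG8519*, the gene next to *ple*, had 94 and 119 counts for *Tj-Gal4* but 22 and 30 for *Tj>E(Pc) shRNA*, and fell from 28.9 ± 1.74 to 5.77 ± 3.46 CPM (log2 fold change -2.43, standard error 0.36, adjusted p = 9.47e-04, edgeR quasi-likelihood test). Its fall was close in size to the -2.75 of *ple* itself, and its call held with any library left out. By the same annotation *Hn*, *ry*, *ple*, *v* and *e* overlap no other gene.

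Near *ry*, 9 neighbours were fitted, with 2 called higher and 2 lower. *CG11670* fell from 3.35 ± 0.200 to 0.364 ± 0.127 CPM (log2 fold change -3.03, adjusted p = 0.00383). *snk*, which encodes the serine protease snake, fell from 14.6 ± 0.717 to 3.12 ± 2.86 CPM (-2.06, adjusted p = 0.0085). Both passed the filter through their level in the controls. *CtBP*, a transcriptional corepressor gene, rose from 55.5 ± 0.0930 to 139.5 ± 15.4 CPM (1.32, adjusted p = 2.39e-04). *CG7518*, named beyond the limit of 3 per gene, rose as well (1.12, adjusted p = 8.71e-04, edgeR quasi-likelihood test for all of these). Near *e*, *Oga*, which encodes the enzyme that removes O-GlcNAc (1.22, adjusted p = 2.69e-04), and *Nelf-A*, a subunit of a factor that pauses RNA polymerase (1.08, adjusted p = 4.87e-04), rose, in the direction opposite to *e*. Near *cn*, *Dgat2*, a diacylglycerol acyltransferase gene, rose from 2 and 12 counts to 70 and 33 (2.40, adjusted p = 0.00519), also opposite to *cn*. *mi*, which overlaps *bw*, rose from 31.6 ± 5.20 to 63.1 ± 3.96 CPM (1.01, adjusted p = 0.00127), and reads in the shared stretch cannot be told apart. *w*, *y* and *st* overlap *kirre*, *CG32816* and *CG43373* in the same annotation, none of which was called, and *cn* overlaps an antisense RNA.

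**Figure D4:**
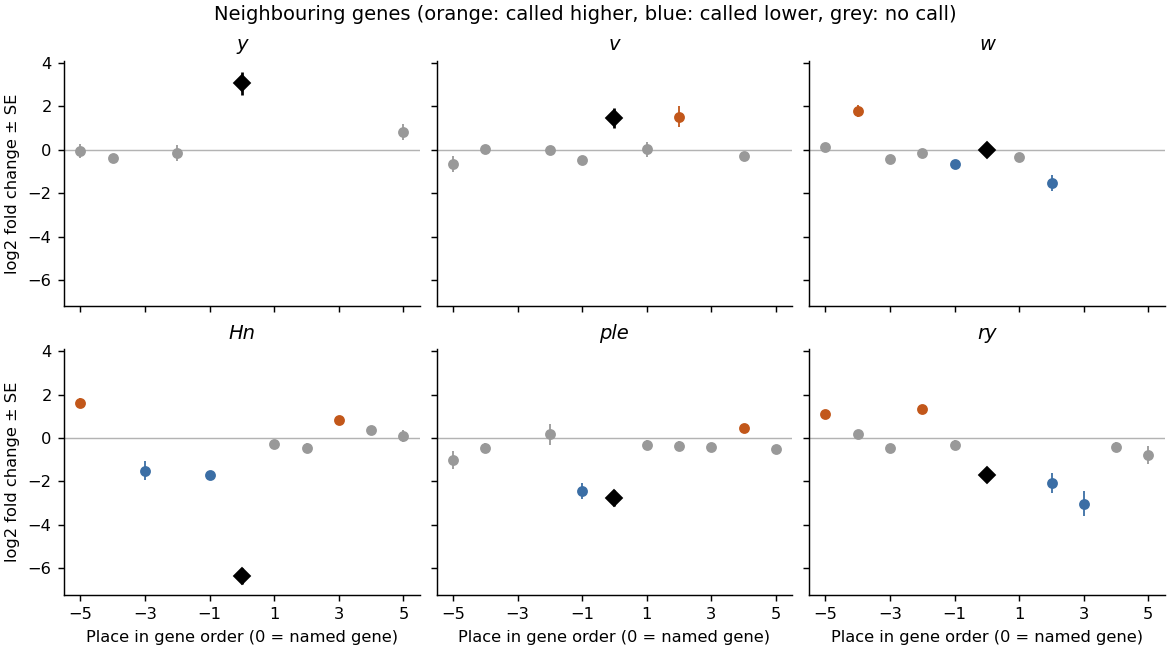
Log2 fold change with bars of 1 standard error (y axis) for *y*, *v*, *w*, *Hn*, *ple* and *ry* (black diamonds, place 0) and for the fitted genes up to 5 places away in gene order (x axis), with orange for called higher, blue for called lower and grey for no call. *y* stands alone above 4 uncalled neighbours, and *Hn* and *ple* each have a neighbour at place -1 that was called lower (-1.69 and -2.43).

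Markers of tissues that hold pigment or lie beside the testis were read in the same libraries. Eye markers (6 of 6 with a row) summed to 52.6 to 60.5 CPM in *Tj-Gal4* and 52.0 to 77.5 CPM in *Tj>E(Pc) shRNA*. Those of the Malpighian tubule (4 of 4), another organ that uses *w*, *v* and *ry*, summed to 69.3 to 74.7 and 63.8 to 79.3 CPM, and those of the fat body (5 of 5) to 32.1 to 40.7 and 32.3 to 43.8 CPM. In all 3 the sums of the genotypes overlapped, but single markers went opposite ways. In the eye list, *trp*, a phototransduction channel gene, was called lower (log2 fold change -2.23, adjusted p = 0.0041). *norpA*, a phospholipase C gene, was called higher (0.91, adjusted p = 0.00686, edgeR quasi-likelihood test for both). *trp* passed the filter through its level in the controls, so its adjusted p carries the limit given above. *Arr2*, an arrestin gene, held 4, 6, 1 and 1 counts. Of the 3 opsin genes listed, *Rh4* held 64, 85, 139 and 44 counts, and *ninaE* and *Rh3* at most 4 in any library. In the fat body list *Lsp2* was called higher (0.98, adjusted p = 0.0363, lost without either control or without *Tj>E(Pc) shRNA* replicate 1). Accessory gland markers (3 of 4) summed to 44.6 to 51.2 and 52.6 to 58.3 CPM, nearly all of it *Acp36DE*, which was not called (0.21, adjusted p = 0.253). Ejaculatory bulb and duct markers (4 of 4) summed to 61.6 to 66.8 and 73.1 to 103 CPM. In that list *EbpIII* was called higher, at a mean of 49.1 against 81.0 CPM (0.70, adjusted p = 0.0174, lost without *Tj-Gal4* replicate 1), and *Ebp* lower, at 14.9 against 4.62 CPM (-1.67, adjusted p = 0.00441, lost without *Tj-Gal4* replicate 2). Haemocyte markers (3 of 4) varied most between replicates, at 64.5 and 142 CPM in *Tj-Gal4* and 152 and 54.8 CPM in *Tj>E(Pc) shRNA*. No marker of these lists was at 0 in all 4 libraries. The part of any of these tissues in the pigment genes' values was not tested.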

How the data were processed

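Whole testes were measured by RNA-seq in 4 libraries; the ChIP-seq samples of the series are not analysed here. The authors aligned 50-nt reads to dm3 with Bowtie 0.12.7 (CASAVA 1.7 is also in the submitters' processing notes), assigned reads with a single alignment site to merged exons of FlyBase genes and deposited the counts without normalization. By the methods, reads over overlapping genes were split equally, yet the deposited counts are whole; strand use is not stated. A table of RPKM values (cRPKM), which the authors deposited as well, was computed by them with edgeR from pseudo-counts, a common library size and the merged length. The identifiers of 13564 of 14256 genes matched a symbol.

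Counts were filtered with filterByExpr, scaled by TMM and fitted by quasi-likelihood in edgeR 4.0.16 (R 4.3.3), and p-values of the F test were adjusted by Benjamini and Hochberg over 11163 genes, with calls at 0.05. The standard error is the log2 fold change over the square root of F. Common dispersion was 0.0151. Nothing says more of the replicates than 1 pair of testes each, so p-values measure the spread between these libraries. Replicates of a genotype were compared by exact two-sided binomial tests on effective library sizes. Ratios of summed counts carry exact 95% intervals. Reads here carry no molecular identifiers, so intervals and the floor of 3 counts describe the error of counting alone.

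The 10 genes, the lists and the tests were chosen with earlier results of these data known. All 10 are named. Of the lists, called genes are named, or, beyond 4 in a direction, the 4 of largest change whose libraries do not overlap; of the neighbours, called genes of at least 2-fold change, at most 3 per gene. *KFase*, *cd*, *mv*, *Vps16A*, *AANAT1*, *stw*, *PPO1*, *CG3164*, *CG17646*, *ac*, *wy* and *dp* were not matched, nor were the markers *vas*, *Mhc*, *wupA* and *Acp53Ea*. Matching was by symbol, so these genes may still have a row that carries no symbol. Gene order and overlaps come from the RefSeq table of a newer assembly, used for names and order only.

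The alternatives were DESeq2 1.42.0, upper-quartile factors, library size alone, edgeR's exact test, other filters, a replicate block, trends on abundance or length removed by loess (span 0.3), counts converted from occupied positions to reads (up to 0.98 of a gene's length), each library left out, limma 3.58.1 on log2(cRPKM + 1) or log2(cRPKM + 0.1) with or without a mean cRPKM of at least 1, stricter calls, and the 2 nearest neighbours only. A crossed replicate block was added after the data were seen. The fits were also run on simulated counts with known changes, set in genes above a floor of mean counts. The simulation used a single dispersion and no trend on coverage. It does not cover genes as thin as *st* or the trends on coverage seen in these libraries.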

Additional observations from a re-analysis of the deposited data

How the results depend on the processing

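Of the 10 genes, the 9 that were fitted kept their direction in most settings, and *st* was left out of this count. Of 160 values of single genes under alternatives, 147 lay within the spread between replicates and 13 moved beyond it, and *w* and *bw*, which were not called, changed sign in some. *v* was not called with DESeq2, and *cn* was called lower by edgeR's exact test. With at least 10 counts required in every library, 7 of the 10 were fitted, and *y* and *Hn* were not among them. Calls of the pigment genes under alternatives are not counted further, since these genes were chosen with the comparison known. Over all genes, 2517 called higher became 1453 with DESeq2, 1478 at an adjusted p under 0.01, 981 with at least 2-fold change and 1219 (without *Tj-Gal4* replicate 1) to 3288 (without *Tj>E(Pc) shRNA* replicate 2) with a library left out, and 1676 without *Tj-Gal4* replicate 2. The 1272 called lower became 724, 338 and 315 in the same 3 settings, 1912 with the abundance trend removed, 2232 with positions converted to reads and 447 to 2652 with a library left out. Neighbours called lower, 8, became 14 without a filter, 14 with the abundance trend and 14 with the length trend removed, 18 with reads and 3 to 22 with a library left out, and among the 2 nearest on either side 4 were called higher and 5 lower. Other pathway genes called higher, 19, became 10 with DESeq2 and 5 to 24 with a library left out; those called lower, 2, became 4 with the exact test, 4 without a filter, 4 with reads, 9 with either trend removed (9 for each) and 2 to 9 with a library left out. Fewer libraries or stricter thresholds account for some of these by construction, and otherwise the cause was not tested. Of all calls 66.4% were higher; with library size alone this was 73.8%, and it was 54.1% with the abundance trend removed, 51.4% with the crossed block and between 55.4% and 78.9% with a library left out. A fit with the replicate number as a block called 2107 genes higher and 888 lower. It called 10 and 8 of the neighbours and 13 and 3 of the other pathway genes, and the pigment granule genes called higher went from 8 to 3. Nothing says that replicate numbers pair libraries, and deviations of same-numbered libraries correlated at -0.235 over 11163 genes. In a crossed replicate block, which pairs unlike numbers across genotypes and was added after the data were seen, 3190 genes were called higher and 3014 lower, 23 neighbours lower and 9 other pathway genes lower. For called list, marker and neighbour genes, 721 of 816 values under alternatives kept the call, 95 lost it and 0 reversed. Low counts limit *st* and *y* most, and with 2 libraries per genotype a change in *bw* of the size measured could not be separated from replicate spread.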

Other observations

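Replicates also differed in a haemocyte marker. *PPO2*, a prophenoloxidase gene of crystal cells, had 45 and 285 counts for *Tj-Gal4* but 245 and 43 for *Tj>E(Pc) shRNA*, so the higher libraries were replicate 2 of the controls and replicate 1 of the knockdown. *ple*, by contrast, was higher in replicate 2 of both genotypes, and *bw* and *v* in replicate 1 of both. These values were singled out after they were seen, and no test of a shared pattern was made.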
